A study of Homo sapiens with 12 samples.

Results

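The clustered protocadherin genes lie on human chromosome 5 in 3 neighbouring clusters, alpha, beta and gamma. All counted regions of 3 histone marks inside chr5:140160000-140895000 (build hg19) were taken, 84 of 244278 used here: 6 of 36400 for H3K4me3, 65 of 50000 for H3K27me3 and 13 of 157878 for H3K79me3. A further 7773 entries of the H3K27me3 table were not analysed here, so its library totals and every H3K27me3 value scaled by them cover the 50000 intervals alone. The alpha window ran from 140165000 to 140395000, the beta window from 140430000 to 140630000 and the gamma window from 140710000 to 140895000. The marks were profiled by chromatin immunoprecipitation and sequencing in 4 related human colorectal cancer lines. DLD1 is the parental line and is labelled epithelial. SA was derived from its soft agar colonies and SPH from its colonospheres, and both are labelled mesenchymal. METS, labelled epithelial, came from cells of a xenograft that had spread to the lung. All 4 lines were kept in the same serum-containing medium with no treatment named. Each line had 1 library per mark, so there are no replicates, and nothing in the labels says whether a derivative line is 1 clone or a pool.

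Clustered protocadherins are cell-surface adhesion proteins, best known for giving single neurons distinct surface identities. In the alpha and gamma clusters each variable first exon has a promoter of its own and is spliced to constant exons that the whole cluster shares, whereas beta genes are single-exon genes. The last first exons of the alpha and gamma clusters are the C-type genes, which are set apart from the other variable exons in sequence and regulation. In epithelial cancers these clusters are known as a region of long-range epigenetic silencing. H3K4me3 sits at active promoters, H3K27me3 is deposited by Polycomb in repressed chromatin, and H3K79me3, the product of DOT1L, covers the first part of transcribed genes.

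Library totals were 6722508 to 7753937 counts for H3K4me3, 15605814 to 20410151 for H3K27me3 and 6165169 to 7521451 for H3K79me3. Values are counts scaled to a library total of 1000000 (CPM), and intervals given in parentheses are exact 95% intervals (Clopper-Pearson), and they reflect only the error of counting. H3K27me3 had been counted over gene-length intervals. In the alpha and gamma clusters the named intervals other than that of PCDHGA11 run from a first exon to the shared cluster end. They therefore lie inside each other, and one interval's count includes the next. The PCDHGA11 interval ends early, and short unnamed intervals lie inside the named ones without reaching the end. The counts of the stretch from each start to the next were therefore obtained by subtraction: in 352 nested pairs among the members, 0 inner intervals had more counts than the outer one. Of the 65 intervals 57 could be given a gene name from gene lengths and spacing, 8 could not, and PCDHGB5 had no interval of its own.

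H3K27me3 was the mark with broad signal. With each base counted once, DLD1 had 0.79 CPM per kb in the alpha, 0.56 in the beta and 0.94 in the gamma cluster. SA and METS were also lowest in the beta cluster, with 0.65 and 0.54. In SPH the clusters were close, with 0.77, 0.73 and 0.75. The beta values cover short gene intervals alone, 63477 bp, whereas the alpha and gamma values cover the cluster from its first start to its end. H3K4me3 was confined to a few places, and H3K79me3 had no counted region in any of the 3 cluster windows. The median H3K27me3 interval of the window had 0.87 CPM per kb in DLD1, with 0.93 in SA, 0.75 in SPH and 0.94 in METS, where the median of all 50000 intervals was 0.35, 0.31, 0.33 and 0.34. Within 1 Mb on either side, the median interval had 0.30 CPM per kb before the window and 0.26 after it in DLD1. The 3 cluster windows, 615 kb in all, held 4 H3K4me3 regions, or 6.50 per Mb, where the flanks held 34 and 27 per Mb. For H3K79me3 they held 0, where the flanks held 135 and 114 per Mb. Nested intervals share reads, so these medians do not stand for separate loci.

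No region of the window passed a 2-fold difference from DLD1 in any derivative, with 0.5 CPM added to each value. For H3K27me3 this was 0 of 65 members, where 0.817% of all tested intervals passed in SA, 2.15% in SPH and 1.27% in METS. For H3K4me3 it was 0 of 6, with 2.69%, 7.07% and 5.11% of all regions passing in the same order. For H3K79me3 it was 0 of 13, with 3.41%, 8.24% and 9.3%. With 0.1 CPM added, 3 H3K27me3 members passed in SPH, but the share of all intervals passing at that setting was not computed. The added 0.5 CPM holds back ratios of intervals with few counts. Without it the unnamed chr5:140498262-140500347 was at 2.07 times DLD1 in SA and the 308-bp chr5:140858883-140859190 at 0.33 times in SPH, both described below. PCDHB8 was at 2.03 times in SA, and SLC25A2, with 1 count in DLD1, at 2.48 in SA, 3.82 in SPH and 3.08 in METS. The H3K79me3 regions chr5:140700077-140700337 and chr5:140689293-140689706 were at 0.48 times in SA and 0.49 times in METS, in that order. The unnamed chr5:140699661-140700339 had 0 counts in DLD1 and so no ratio. The share of all regions past 2-fold without the added CPM was not computed.

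The clearest difference between lines was in how H3K27me3 was spread along the alpha cluster. The alpha cluster encodes the protocadherin alpha proteins, with 13 variable first exons, PCDHA1 to PCDHA13, followed by the C-type exons PCDHAC1 and PCDHAC2. From the PCDHAC1 start to the cluster end lay 41.4% of the cluster's H3K27me3 counts in DLD1 (39.6 to 43.3) and 42.2% in METS (40.7 to 43.8), but 31.6% in SA (30.1 to 33.1) and 25.3% in SPH (23.9 to 26.8). Both mesenchymal lines thus lay below both epithelial lines, and the epithelial lines differed from each other by less than their intervals. This end makes up 37.9% of the cluster's length. Counted from PCDHAC2 alone, a boundary added after the values were seen, the shares were 14.9% in DLD1 and 16.0% in METS, with 9.97% in SA and 8.27% in SPH. A share within a library does not depend on how libraries are scaled. With 1 library per line and mark, no test of a line against DLD1 was possible.

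**Figure D1:**
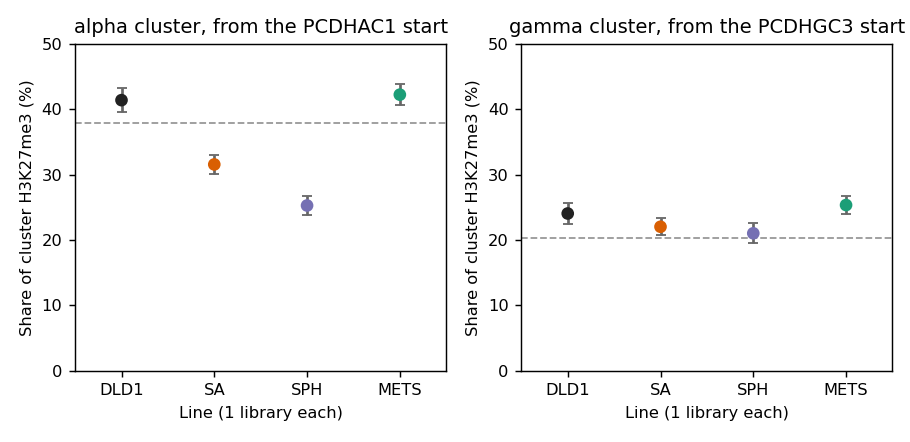
Share of a cluster's H3K27me3 counts that lies from the first C-type start to the cluster end, in percent, for each line (1 library each). Points are shares, bars are exact 95% binomial intervals, and dashed lines are the share of the cluster's length. In the alpha cluster SA (31.6%) and SPH (25.3%) lie below DLD1 (41.4%) and METS (42.2%). In the gamma cluster the 4 lines lie between 21.0% and 25.4%.

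On the scale of CPM, both sides of the alpha cluster contributed. The stretches before PCDHAC1 summed to 105 CPM in DLD1, with 140 in SA, 130 in SPH and 111 in METS. That made SA 1.33 times DLD1 (1.25 to 1.42), SPH 1.24 times (1.16 to 1.32) and METS 1.06 times (0.995 to 1.13). The stretches from PCDHAC1 on summed to 74.3 CPM in DLD1, with 64.5 in SA, 44.0 in SPH and 81.5 in METS. Here SA was 0.87 times DLD1 (0.80 to 0.94), SPH 0.59 times (0.54 to 0.65) and METS 1.10 times (1.02 to 1.18). With TMM factors the SA ratio at the C-type end was 0.96 (0.88 to 1.04), so its position below DLD1 in CPM rests on the scaling, while SPH was 0.64 times DLD1 (0.59 to 0.70). Over the whole cluster these parts offset each other: the summed H3K27me3 was 179 CPM in DLD1, with 204 in SA, 174 in SPH and 193 in METS over all 15 stretches.

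**Figure D2:**
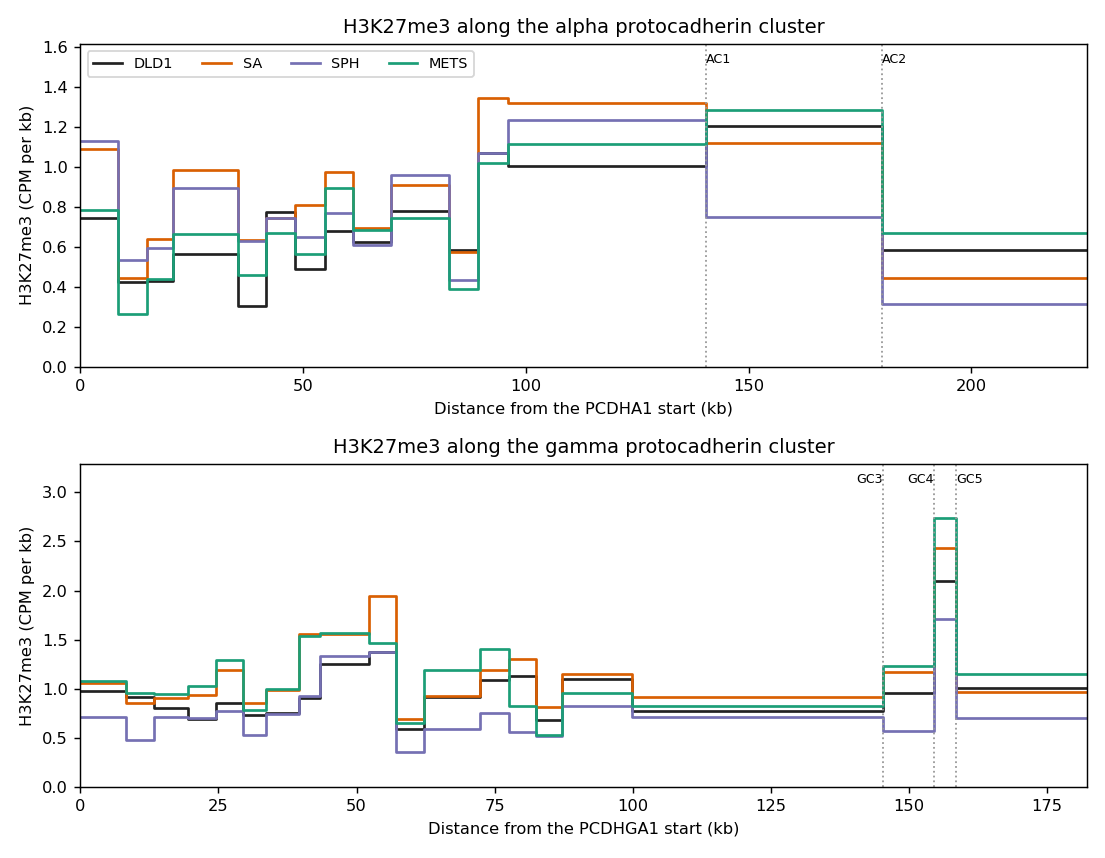
H3K27me3 in CPM per kb (y axis) over the stretches between successive first-exon starts, against the distance in kb from the first start of the alpha cluster (top) and gamma cluster (bottom), with 1 line per cell line. Dotted lines mark the C-type starts. In the alpha cluster SA and SPH lie above DLD1 over the PCDHA1, PCDHA4 and PCDHA13 stretches and below it from AC1 on (with TMM factors SA is at 1.03 times DLD1 over the AC1 stretch); in the gamma cluster the GC4 stretch is the highest in each line, from 1.71 CPM per kb in SPH to 2.74 in METS.

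Among the variable alpha exons, the PCDHA1 stretch had 0.74 CPM per kb in DLD1, with 1.09 in SA, 1.13 in SPH and 0.78 in METS. The PCDHA4 stretch had 0.56 in DLD1, with 0.98 in SA, 0.89 in SPH and 0.66 in METS. The PCDHA5 stretch, the lowest of the alpha cluster in DLD1, had 0.30 CPM per kb there, 0.63 in SA, 0.63 in SPH and 0.46 in METS. In each of these 3 the mesenchymal lines lay above both epithelial lines. The PCDHA5 stretch had the largest ratio of any stretch to DLD1, 2.09 in SA (1.35 to 3.31) and 2.06 in SPH (1.34 to 3.25), on 30 counts in DLD1. Not every variable exon behaved this way: the PCDHA6 stretch had 0.77 CPM per kb in DLD1 and 0.74 in both SA and SPH, and the values of PCDHA8, PCDHA9 and PCDHA11 overlapped between the pairs of lines too. Of the 13 stretches before PCDHAC1, the interval of the ratio to DLD1 lay wholly above 1 in 7 for SA, 5 for SPH and 1 for METS, and wholly below 1 in 0, 0 and 1. With TMM factors it lay above 1 in 9, 7 and 1 and below 1 in none of the 13. The share of all intervals that meet this rule was not computed, so these counts have no background.

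The long PCDHA13 stretch, which reaches 44509 bp to PCDHAC1, carried many of these counts. It had 695 counts in DLD1, with 1110 in SA, 1122 in SPH and 1003 in METS, or 1.001, 1.32, 1.24 and 1.11 CPM per kb. SA was 1.32 times DLD1 (1.20 to 1.45) and SPH 1.23 times (1.12 to 1.36). Directly after it SPH turned from above DLD1 to below it, while SA was near DLD1. The PCDHAC1 stretch had 1.20 CPM per kb in DLD1, with 1.12 in SA, 0.75 in SPH and 1.28 in METS, and SPH was 0.62 times DLD1 (0.56 to 0.70). SA was 0.93 times DLD1 there (0.84 to 1.03), and 1.03 times with TMM factors. The PCDHAC2 stretch, which includes the constant exons of the cluster, had 418 counts in DLD1, with 385 in SA, 294 in SPH and 627 in METS, or 0.58, 0.44, 0.31 and 0.67 CPM per kb. There SA was 0.76 times DLD1 (0.66 to 0.88), SPH 0.54 times (0.46 to 0.63) and METS 1.15 times (1.02 to 1.31). The mesenchymal lines pooled had 0.59 times the H3K27me3 of the epithelial lines pooled over PCDHAC2 (0.54 to 0.65).

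SA and SPH together were set against DLD1 and METS by edgeR's quasi-likelihood model, taking each line as 1 replicate, and p-values were adjusted over all 48375 tested intervals. It called 0 of the 65 H3K27me3 members, with 0.637% of all intervals called. The DESeq2 Wald test called 0 of the 37 members that received an adjusted p from it, with 101 of 16487 intervals called. At an unadjusted edgeR p under 0.05 there were 7 of 65 members, or 10.8% with many of them nested, near the 8.81% of all intervals. These p-values measure how much 4 lines of shared origin vary, and nothing more. PCDHAC2 came closest among the lower ones, with a log2 difference of -0.73 (edgeR adjusted p = 0.0780, and 0.0013 to 0.607 over the alternatives). The PCDHAC1 interval, which contains that of PCDHAC2, had a log2 difference of -0.52 (edgeR adjusted p = 0.293). When SA was left out, both were called lower, PCDHAC2 at -1.003 (edgeR adjusted p = 0.0013) and PCDHAC1 at -0.82 (edgeR adjusted p = 0.0137); that comparison called 2.59% of all intervals and leaves SPH alone on its side, assumed to vary like the epithelial lines. Of the stretches, 9 of 35 had both mesenchymal lines above both epithelial lines, 4 had both below and 22 overlapped. Over all intervals, 11.9% had both mesenchymal lines above and 26.1% had both below. Those are whole intervals and not stretches. Of the 65 members as whole intervals, many of them nested, 11 had both above and 6 had both below. These counts and shares use library totals, and the shares were not computed with TMM factors. All 9 stretches that were higher were alpha exons before PCDHAC1 (PCDHA1 to PCDHA5, PCDHA7, PCDHA10, PCDHA12 and PCDHA13). The 4 stretches that were lower were PCDHAC1, PCDHAC2, PCDHGA2 and PCDHGC5. With TMM factors SA was above DLD1 at 3 of these, with ratios of 1.03 at PCDHAC1, 1.04 at PCDHGA2 and 1.05 at PCDHGC5. It was below DLD1 at PCDHAC2, with 0.84.

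The gamma cluster, whose A-type and B-type exons encode the gamma proteins and whose end holds the C-type exons PCDHGC3, PCDHGC4 and PCDHGC5, had less H3K27me3 in SPH than in the other lines. The whole cluster summed to 171 CPM in DLD1, with 197 in SA, 137 in SPH and 196 in METS. SPH was 0.80 times DLD1 (0.76 to 0.85), SA was 1.15 times (1.09 to 1.21) and METS 1.14 times (1.09 to 1.20). Unlike in the alpha cluster, SPH was lower on both sides of the first C-type start: 0.83 times DLD1 before PCDHGC3 (0.78 to 0.89) and 0.70 times from there on (0.63 to 0.78). The share from PCDHGC3 on was 24.1% in DLD1 (22.5 to 25.7), 22.0% in SA (20.7 to 23.4), 21.0% in SPH (19.5 to 22.6) and 25.4% in METS (24.0 to 26.7), with 20.3% of the length. These shares are closer together than in the alpha cluster, and those of DLD1, SA and SPH have overlapping intervals. Both mesenchymal lines again lay below both epithelial lines, and the interval of METS did not overlap those of SA and SPH.

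Within the gamma cluster the PCDHGC4 stretch had the highest H3K27me3 per kb in every line, 2.10 CPM per kb in DLD1, with 2.43 in SA, 1.71 in SPH and 2.74 in METS. Next to it, the PCDHGC3 stretch had 0.96, 1.17, 0.57 and 1.23 CPM per kb, and SPH was 0.59 times DLD1 (0.45 to 0.77). The PCDHGC5 stretch had 1.01, 0.96, 0.70 and 1.15 CPM per kb, so with library totals both mesenchymal lines lay below both epithelial lines, SPH by more than SA. Among the A-type and B-type exons the ratio of SPH to DLD1 was lowest at PCDHGB6, 0.50 (0.35 to 0.70), where the 4 lines had 1.13, 1.30, 0.56 and 0.82 CPM per kb. At PCDHGA6 and PCDHGA7 in the middle of the cluster SPH was level with DLD1, 1.33 against 1.25 and 1.38 against 1.38 CPM per kb. SA was highest at PCDHGA7, with 1.94 CPM per kb. Of the 20 gamma stretches, the interval of the ratio to DLD1 lay wholly below 1 in 9 for SPH, 0 for SA and 1 for METS, and wholly above 1 in 0, 5 and 7. With TMM factors it lay below 1 in 6, 0 and 0 and above 1 in 0, 9 and 9. These counts too have no share over all intervals beside them. Per kb, the highest single interval of the whole window in DLD1 was an unnamed 308-bp interval inside the PCDHGC3 stretch, chr5:140858883-140859190, with 14 counts in DLD1 and 16 in METS, and 9 in SA and 6 in SPH. At 2.91, 1.55, 0.95 and 2.56 CPM per kb it was lower in both mesenchymal lines, on few counts. A further unnamed interval with high signal, chr5:140805853-140808219, had 1.54, 1.99, 1.16 and 1.52 CPM per kb, with SA highest. The nested intervals of PCDHGB3, PCDHGA5 and PCDHGA6 were also among the 10 highest per kb, and they share most of their reads. Just before the cluster, the unnamed interval chr5:140705777-140708924 had 48 counts in DLD1, with 32 in SA, 37 in SPH and 67 in METS, with a log2 difference of -0.86 between mesenchymal and epithelial lines (edgeR adjusted p = 0.201).

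The beta genes each have an interval of their own, so their values do not share reads, with the exception of an unnamed interval that overlaps PCDHB3. Their H3K27me3 was uneven from gene to gene. PCDHB1, the first of the cluster, was the highest in every line, with 60 counts in DLD1, with 101 in SA, 113 in SPH and 93 in METS, or 1.52, 2.11, 2.18 and 1.81 CPM per kb. The median beta gene had 0.43 CPM per kb in DLD1, with 0.53 in SA, 0.51 in SPH and 0.47 in METS. PCDHB14 and PCDHB12, near the far end, also stood above the median: PCDHB14 had 1.42, 1.30, 2.09 and 0.94 CPM per kb and PCDHB12 had 0.69, 1.10, 1.21 and 0.99. The lowest was PCDHB5 in DLD1, with 0.22, and PCDHB13 in the other lines, with 0.26 in SA, 0.30 in SPH and 0.28 in METS.

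PCDHB4 and its unnamed neighbour chr5:140498262-140500347 separated the mesenchymal from the epithelial lines most. PCDHB4 had 25 counts in DLD1, with 56 in SA, 60 in SPH and 24 in METS, or 0.44, 0.82, 0.81 and 0.33 CPM per kb. The neighbour had 20, 50, 44 and 18 counts. Both mesenchymal lines were above both epithelial lines at either place. The log2 difference was 1.10 for PCDHB4 (edgeR adjusted p = 0.0780, and 0.0363 to 0.533 over the alternatives) and 1.16 for the neighbour (edgeR adjusted p = 0.0945, and 0.0496 to 0.567). Both passed with TMM factors, at edgeR adjusted p = 0.0363 and 0.0496, where 0.657% of all intervals were called, and with DESeq2 size factors, where 0.653% were. Neither passed with the filter at the median or with a line left out, and the DESeq2 Wald test gave neither an adjusted p. At PCDHB2 it was DLD1 that stood apart, with 48 counts against 40 in SA, 36 in SPH and 38 in METS, and the pairs of lines overlapped. SPH was 0.57 times DLD1 there (0.36 to 0.90) and METS 0.61 times (0.39 to 0.95). Of the 19 beta genes the ratio was above 1 in 15 for SPH, 12 for SA and 11 for METS. Its interval lay wholly above 1 in 6, 3 and 0, and wholly below 1 in 1, 1 and 2. With TMM factors it lay above 1 in 6, 4 and 0 and below 1 in 1, 0 and 2. The share of all intervals that meet these rules was not computed. Summed over 20 beta intervals that do not overlap, the signal was 35.2 CPM in DLD1, with 41.4 in SA, 46.1 in SPH and 34.2 in METS. SPH was 1.31 times DLD1 there (1.18 to 1.46), the reverse of its position in the gamma cluster.

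**Figure D3:**
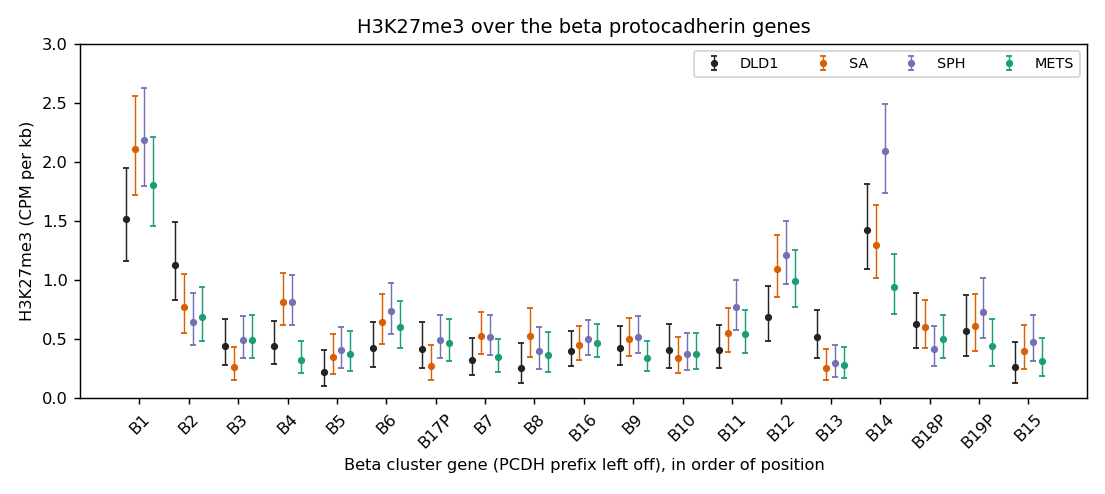
H3K27me3 in CPM per kb (y axis) over the 19 beta cluster genes and pseudogenes, in order of position (x axis), for each line. Points are 1 library each and bars are exact 95% Poisson intervals. PCDHB1 is highest in every line, and at PCDHB4 SA (0.82) and SPH (0.81) lie above DLD1 (0.44) and METS (0.33).

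H3K4me3 was found at the start of 3 of the 55 protocadherin genes with an interval, PCDHAC2, PCDHB14 and PCDHGA10, within 1 kb. The other 52 had no counted region there. To show what these starts have in common and how they differ, the 250 bases before the RefSeq start (build GRCh38.p14, chromosome 5, plus strand) are printed for these 3 and for a neighbour without H3K4me3, PCDHAC1 and PCDHB13. They lie at chr5:140966226-140966475, chr5:140926049-140926298, chr5:141223093-141223342, chr5:141213669-141213918 and chr5:141412737-141412986 in the order shown. Capitals mark the letters CGCT, the core of a sequence element known to be shared by most clustered protocadherin promoters. These letters alone do not show that the element is present. Within the 250 bases they occurred in 96.2% of the listed clustered protocadherin promoters and in 48.1% of all RefSeq promoters.
PCDHAC2: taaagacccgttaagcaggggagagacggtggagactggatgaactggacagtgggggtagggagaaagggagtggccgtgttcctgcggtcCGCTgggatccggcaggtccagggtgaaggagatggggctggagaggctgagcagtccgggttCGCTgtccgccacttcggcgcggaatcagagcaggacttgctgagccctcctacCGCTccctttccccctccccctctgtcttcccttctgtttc
PCDHAC1: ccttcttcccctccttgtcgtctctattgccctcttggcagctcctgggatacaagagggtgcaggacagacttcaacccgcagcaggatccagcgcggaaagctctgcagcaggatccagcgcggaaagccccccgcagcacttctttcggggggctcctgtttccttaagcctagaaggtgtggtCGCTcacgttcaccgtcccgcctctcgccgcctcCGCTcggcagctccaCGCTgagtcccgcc
PCDHB14: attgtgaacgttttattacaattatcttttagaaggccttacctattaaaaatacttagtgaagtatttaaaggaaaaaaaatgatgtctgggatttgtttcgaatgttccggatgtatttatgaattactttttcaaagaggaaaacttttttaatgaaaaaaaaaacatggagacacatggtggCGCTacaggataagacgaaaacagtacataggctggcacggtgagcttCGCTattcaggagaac
PCDHB13: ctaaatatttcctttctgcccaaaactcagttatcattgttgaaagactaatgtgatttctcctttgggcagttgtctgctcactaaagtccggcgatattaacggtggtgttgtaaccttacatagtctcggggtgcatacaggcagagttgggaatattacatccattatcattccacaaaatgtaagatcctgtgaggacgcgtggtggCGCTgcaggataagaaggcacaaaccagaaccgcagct
PCDHGA10: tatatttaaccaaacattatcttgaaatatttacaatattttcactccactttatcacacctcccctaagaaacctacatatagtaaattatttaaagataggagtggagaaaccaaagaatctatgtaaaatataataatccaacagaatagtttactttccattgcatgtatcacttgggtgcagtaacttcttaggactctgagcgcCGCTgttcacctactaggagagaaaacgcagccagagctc

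Within the last 100 of these bases, CGCT was present in 44 of 52 listed promoters of 47 clustered protocadherin genes, or 84.6%, and in 28.1% of all RefSeq promoters. On the other strand, read as AGCG, it was present in 26.9% and 28.4%. In PCDHB13 it lay 38 bases before the start and in PCDHGA10 it lay 40 bases before. A match is a description of the letters only. The promoters of PCDHAC2 and PCDHAC1 were rich in G and C, 62.4% and 63.2%, with 13 and 18 CpG sites, whereas PCDHB14 had 33.6% with 7 CpG sites, PCDHB13 44.4% with 8 and PCDHGA10 35.2% with 3. The median was 62.4% over 5 listed C-type promoters, 37.6% over the 47 others and 58% over all RefSeq promoters. The starts with H3K4me3 were thus not the G and C rich ones alone, and 1 with such a sequence, PCDHAC1, had no H3K4me3 region. The counted regions are on hg19, and no coordinates were converted.

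At the PCDHAC2 start, the region chr5:140345856-140346331 begins 36 bp into the gene. It had 230 H3K4me3 counts in DLD1, with 273 in SA, 212 in SPH and 296 in METS, or 34.2, 35.2, 29.6 and 40.5 CPM. The pairs of lines were therefore not separated by much: SPH was 0.87 times DLD1 (0.72 to 1.05), SA 1.03 times (0.86 to 1.23) and METS 1.18 times (0.99 to 1.41). H3K27me3 over the same gene was lower in both mesenchymal lines, as given above, while this H3K4me3 differed from DLD1 by less than counting error in each derivative. Further in, 35519 bp past the start, the region chr5:140381339-140381820 had 15.3 CPM in DLD1, with 14.6 in SA, 22.8 in SPH and 12.5 in METS. SPH was 1.49 times DLD1 at this place (1.15 to 1.92), the largest of its ratios at the 6 regions.

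At PCDHB14 the region chr5:140602859-140603312 covers the start and had 58 counts in DLD1, with 47 in SA, 91 in SPH and 50 in METS, or 8.63, 6.06, 12.7 and 6.85 CPM. SPH was 1.47 times DLD1 (1.05 to 2.09), SA 0.70 times (0.47 to 1.05) and METS 0.79 times (0.53 to 1.18). SPH was also highest for H3K27me3 over this gene, at 1.47 times DLD1 (1.08 to 2.02). The PCDHGA10 region, chr5:140792652-140793069, covers the start of that gene and was the most even of the 6, with 25.1 CPM in DLD1, with 23.6 in SA, 27.4 in SPH and 26.3 in METS. Its ratios to DLD1 lay between 0.94 (0.76 to 1.16) in SA and 1.09 (0.88 to 1.35) in SPH. Its H3K27me3 stretch was below those on both sides in DLD1, SA, SPH and METS, with 0.68, 0.81, 0.51 and 0.53 CPM per kb.

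**Figure D4:**
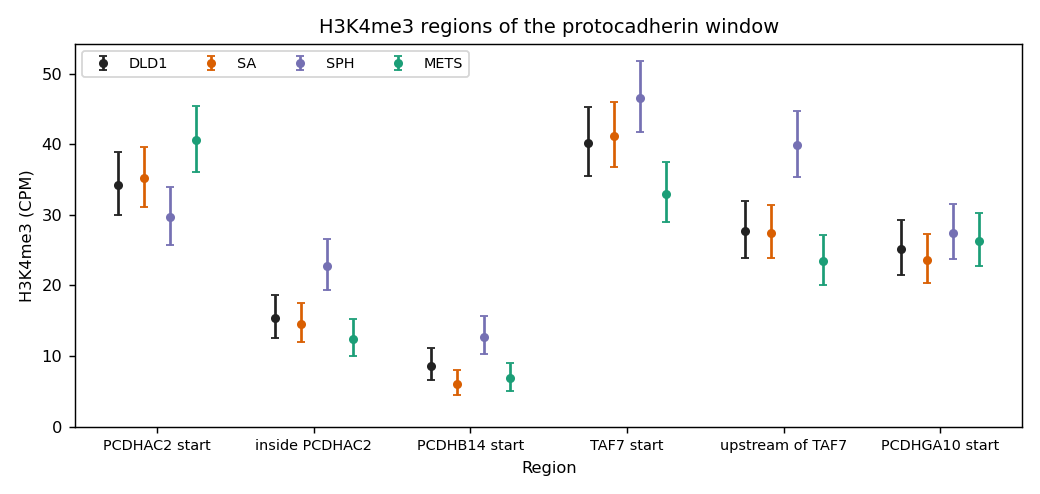
H3K4me3 in CPM (y axis) at the 6 counted regions of the window in order of position (x axis), for each line. Points are 1 library each and bars are exact 95% Poisson intervals. SPH lies above the other lines inside PCDHAC2 (22.8), at the PCDHB14 start (12.7) and upstream of TAF7 (39.8), and the lines overlap at the PCDHGA10 start.

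The other 2 H3K4me3 regions belong to TAF7, a gene of the general transcription factor TFIID that lies between the beta and gamma clusters, on the minus strand per RefSeq. The region over its start, chr5:140699916-140700307, had 40.2 CPM in DLD1, with 41.1 in SA, 46.6 in SPH and 33.0 in METS. The region upstream, chr5:140700545-140700892, had 27.7, 27.5, 39.8 and 23.4 CPM, and SPH was 1.44 times DLD1 (1.19 to 1.74). Per kb the start of TAF7 had the highest H3K4me3 of the window in DLD1, 102 CPM per kb against 71.9 at PCDHAC2, 60.1 at PCDHGA10 and 19.0 at PCDHB14. The DESeq2 Wald test called 0 of the 6, with 34 of 34247 regions called. The edgeR model called 0 of the 6, with 0.298% of all regions called. At an unadjusted p under 0.05 it had 0 of the 6, where 10.96% of all regions passed. Without SA it called the region upstream of TAF7 higher, with a log2 difference of 0.64 (edgeR adjusted p = 0.0178, and 0.503 with all 4 lines). That comparison called 15% of all regions, so 1 of 6 is near the share over all.

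The H3K79me3 of the window lay over TAF7, with 4 regions, and downstream of its end, with 9. The centres of these 13 regions lay between 123 bp and 22.7 kb from the TAF7 start. The highest, chr5:140698588-140699001, had 236 counts in DLD1, with 247 in SA, 163 in SPH and 157 in METS, or 31.4, 34.0, 26.4 and 24.4 CPM. The region centred 837 bp from the start had 24.1, 23.4, 23.4 and 19.0 CPM. Only at the region nearest the start, centred at 123 bp, was the signal low, 1.73, 0.82, 1.95 and 3.11 CPM. Past the gene's end it fell to 1.60, 0.96, 1.46 and 1.55 CPM at the last region. Summed over the 13 regions, DLD1 had 108 CPM, SA 123, SPH 96.3 and METS 89.9. METS was 0.83 times DLD1 (0.74 to 0.92), SPH 0.89 times (0.80 to 0.99) and SA 1.13 times (1.03 to 1.25). These values use library totals, and the sum was not recomputed with TMM factors or DESeq2 size factors. The median of all H3K79me3 regions lay at a log2 ratio of -0.11 in SPH, -0.02 in SA and 0.08 in METS. H3K27me3 over TAF7 was low, with 5, 5, 12 and 9 counts, and over SLC25A2, a mitochondrial ornithine carrier gene next to it, there were 1, 3, 5 and 4. The edgeR model called 0 of the 13 regions and 0% of all regions (4675 of 156120 and 0 of the 13 at an unadjusted p under 0.05), and the DESeq2 Wald test called 0.

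**Figure D5:**
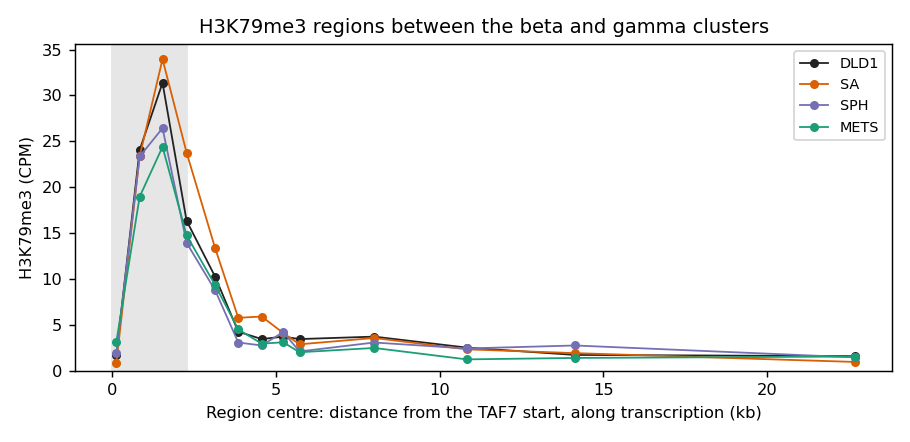
H3K79me3 in CPM per region (y axis) at the 13 counted regions between the beta and gamma clusters, against the distance of the region's centre from the TAF7 start in kb, along transcription (x axis), for each line (1 library each). The grey band is TAF7. The signal peaks inside the gene, at 24.4 CPM in METS to 34.0 in SA and falls to between 0.96 and 1.60 CPM at 22.7 kb.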

How the data were processed

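H3K4me3, H3K27me3 and H3K79me3 libraries of DLD1, SA, SPH and METS were used, 12 in all. The authors deposited whole-number read counts for each region, raw by their values; the build was hg19 per the submitters' processing notes, and the aligner, region caller and counting program are not given in the sources used here. The H3K27me3 table was used in part, without its last 7773 entries. The labels gave the groups, and the epithelial and mesenchymal labels were not checked against marker genes here. The members and lists were chosen with earlier results of these data known.

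Counts were scaled to CPM by column totals. Ratios to DLD1 carry exact 95% Clopper-Pearson intervals conditional on both counts (SciPy 1.17.1) and reflect only counting, since PCR copies were not marked. A region passed at 2-fold with 0.5 CPM added. With 1 library per line, no p was computed for a line against DLD1. Mesenchymal and epithelial lines were compared with edgeR 4.0.16 (quasi-likelihood, library totals, all regions with a count, Benjamini-Hochberg 0.05). That script was tested on simulated data. Alternatives were TMM factors, DESeq2 1.42.0 size factors and its Wald test, 0.1 or 1 CPM added, a filter at the median (4 of 6, 54 of 65 and 7 of 13 members remain) and leaving out each line.

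Members with the highest mean CPM (per kb for H3K27me3, at most 10 a mark), past 2-fold with 20 counts, or called by edgeR were to be named; the stretches and other genes were named after their values were seen. No annotation on hg19 was used. Gene names were assigned from RefSeq GRCh38.p14, a choice made after the tables were seen, by gene length (within 1000 bp for alpha and gamma, 100 bp for TAF7 and SLC25A2) and by the spacing of starts (within 1500 bp, beta). PCDHGA11, whose interval ends early, is not split from PCDHGB7. Other genes of the pathway could not be named on this build and are not analysed here.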

Additional observations from a re-analysis of the deposited data

How the results depend on the processing

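Of 581 values recomputed under an alternative, 558 were counted as unchanged: ratios that stayed within their main interval, and counts of calls that changed little. A ratio that kept its side of 1 but left its interval was counted as moved. Of 504 recomputed ratios to DLD1, 31 crossed 1, all with TMM factors or DESeq2 size factors and from ratios between 0.915 and 1.06; they belong to 16 ratios, among them those of SA at PCDHAC1, PCDHGA2 and PCDHGC5. With 0.1 CPM added, 3 H3K27me3 members passed 2-fold in SPH against 0, all with 16 counts or fewer (SLC25A2 and 2 unnamed intervals). The share of all intervals passing with 0.1 CPM added was not computed. Library totals place the median H3K27me3 interval at a log2 ratio of -0.08 (SA) and -0.07 (SPH); TMM factors bring it to 0. The summed alpha H3K27me3 then moved from 1.14 to 1.26 times DLD1 in SA (1.26 with DESeq2 size factors) and from 0.97 to 1.05 in SPH (1.05), so SPH cannot be placed above or below DLD1 there. The gamma sum moved from 1.15 to 1.27 in SA (1.27) and from 0.80 to 0.87 in SPH (0.87). At the PCDHA13 stretch SA moved from 1.32 to 1.45 (1.46). The edgeR model called 2 H3K27me3 members higher with TMM factors and 2 with DESeq2 size factors. Leaving out 1 line gave 0 to 1 calls among the H3K4me3 members and 0 to 2 among the H3K27me3 members, where the highest values came without SA, a comparison that called 15% and 2.59% of all regions. For H3K79me3 the cluster sums have no value, as no region lies in the clusters. The C-type shares with the boundary at PCDHGC5 were 13.96% in DLD1, with 11.6% in SA, 12.2% in SPH and 13.9% in METS. Low counts limit the beta genes, which had 10 to 125 counts. No paired analysis was possible because each line has 1 library per mark.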
